A study of Mus musculus with 10 samples.

Results

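Expression of 10 growth arrest and DNA damage genes was followed in refed and fasting mouse liver, with and without hepatocyte nicotinamide phosphoribosyltransferase (NAMPT). The genes were chosen by symbol, as Cdkn1a, Cdkn1b, Gadd45a, Gadd45b, Gadd45g, Btg1, Btg2, Ccnd1, Mdm2 and Trp53inp1, and all 10 were found among the 41388 genes of each count table. RNA-seq libraries were available from 2 WT Refed, 3 WT Fasting and 5 NAMPT LKO Fasting livers of C57B/6J littermates at 12 weeks of age. WT mice carry loxP sites at both copies of Nampt with no Cre, and NAMPT LKO mice carry the same sites with Albumin-cre, which removes Nampt in hepatocytes and leaves it in the other liver cells. Per the labels, fasting lasted 24 h in both Fasting groups, and the WT Refed mice had food for 2 h after 22 h without it. The text of the study gives a shorter fast and names the control group WT Fed, random-fed, so the feeding state of the controls differs between the sources. NAMPT LKO livers were sampled in the fasted state alone, and the effect of the deletion in fed liver was not analysed here.

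These genes act where a cell decides whether to divide, repair or wait. Cdkn1a encodes p21 and Cdkn1b encodes p27, which bind cyclin-dependent kinases and hold the cell cycle. The tumor suppressor p53 induces Cdkn1a, Gadd45a, Btg2, Mdm2 and Trp53inp1 after DNA damage, and MDM2 in turn marks p53 for destruction. Several members also respond to nutrients and hormones in the undamaged liver, where hepatocytes rarely divide, and NAMPT supplies NAD+, the substrate of the DNA damage sensor PARP1 and of the sirtuins.

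Total counts ranged from 30603080 to 43434139 per library, and the members collected between 15 counts (Gadd45a in 1 WT Fasting liver) and 7339 counts (Trp53inp1 in another). Levels are given as TMM-normalized CPM, counts scaled to library size after edgeR's TMM adjustment, and as RPKM, which also divides by exonic length, where genes are compared. All 10 members were among the 13444 genes tested. Gadd45a was above 1 CPM in 4 of 10 libraries and the other members in all 10. Nampt, the deleted gene, averaged 13.2 ± 1.49 CPM (SD, n = 5) with the deletion. WT Fasting livers averaged 92.4 ± 42.3 CPM (SD, n = 3), and the groups did not overlap. NAMPT LKO replicate 5 stood apart, with 21.1% of its counts from the mitochondrial genome against 7.42% to 12.9% in the other libraries. The 6 hepatocyte markers, albumin among them, summed to 60829 to 108130 CPM in all libraries. The 6 bile duct markers, from Krt7 to Cldn7, had no median count of 0. They summed to 34.3 to 54.5 CPM in NAMPT LKO livers, 15.3 to 22.7 CPM in WT Fasting livers and 20.2 to 22.8 CPM in WT Refed livers. Spp1 alone held 19.4 to 37.8, 8.67 to 11.5 and 8.95 to 11.8 CPM of these sums. Krt7, Krt19, Epcam and Cldn7 stood at or under 2.87 CPM in every liver. Of the 6, only Sox9 and Cldn7 overlapped between NAMPT LKO and WT Fasting livers. The part of the bile duct markers in any result was not tested. In liver homogenate, fewer cells of a type and less RNA per cell cannot be told apart.

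In WT Fasting compared with WT Refed livers, Gadd45b, Btg1 and Trp53inp1 rose, by 4.15-fold, 2.48-fold and 4.60-fold. The threshold was 0.05 for the p of edgeR's quasi-likelihood test, adjusted over all genes by Benjamini and Hochberg's method. No member fell past it, although 7 members had an unadjusted p under 0.05, as had 22.3% of all genes, and edgeR's exact test, voomWithQualityWeights and DESeq2 each called Gadd45a and Ccnd1 lower. The 3 members that rose stand beside 2.68% of all genes tested that rose by the same rule, 4.36% that fell and 7.04% that changed in either direction. The groups did not overlap for 7 of 10 members, with 5 higher and 2 lower in WT Fasting livers, where 49.7% of all genes had no overlap between 3 and 2 livers (24.5% higher and 25.1% lower). The median log2 fold change was 0.61 over the members and 0.037 over all genes tested.

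**Figure D1:**
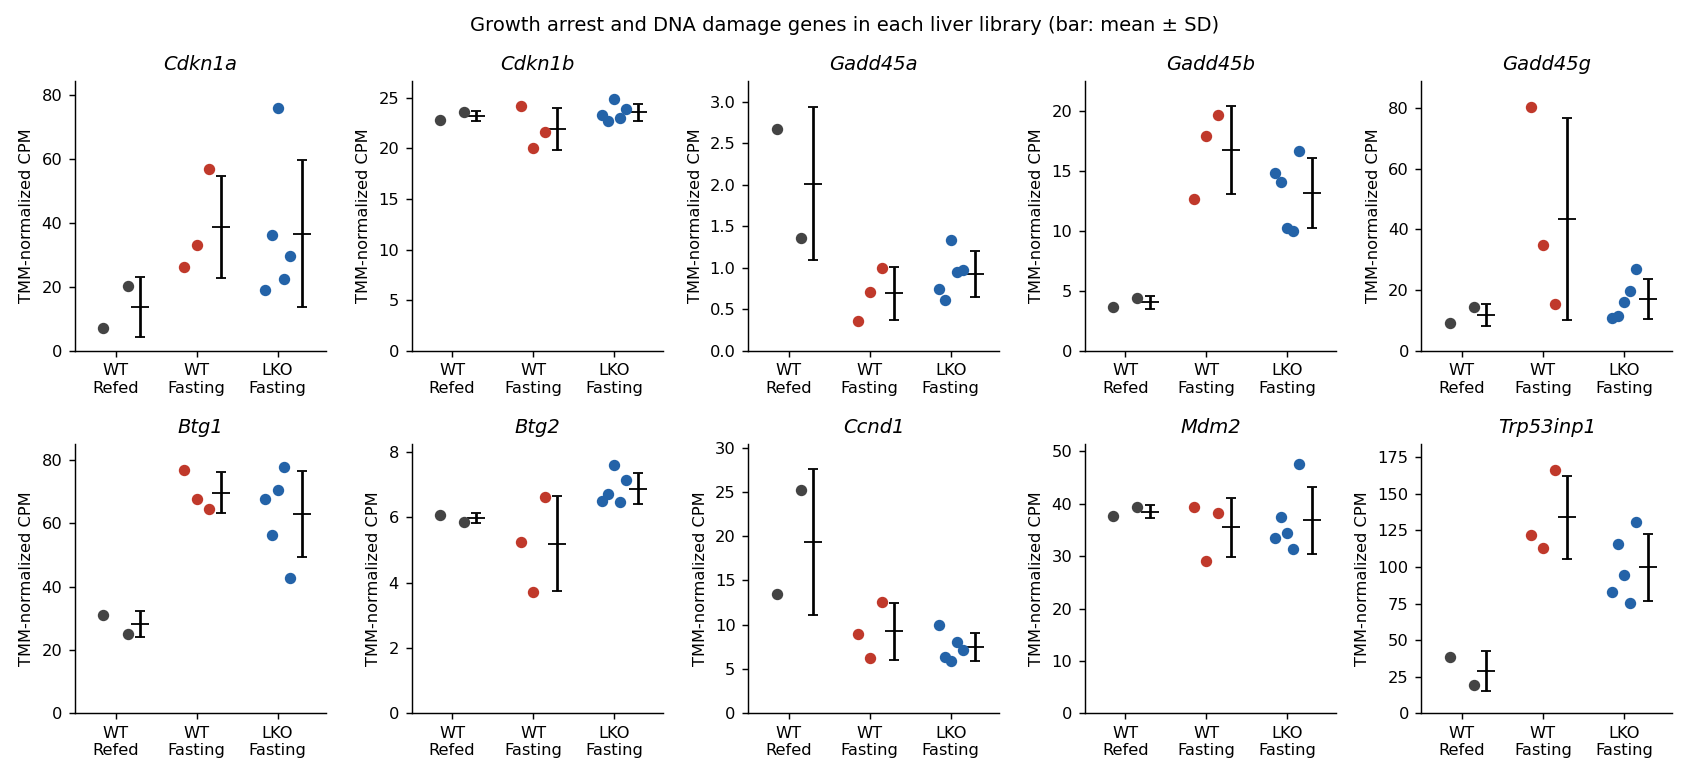
TMM-normalized CPM (vertical axes, each from 0) of the 10 members in 2 WT Refed (grey), 3 WT Fasting (red) and 5 NAMPT LKO Fasting (blue) livers, 1 point per library, with the mean ± SD of each group at its right. Gadd45b, Btg1 and Trp53inp1 are higher in every Fasting liver than in both WT Refed livers, Gadd45a and Ccnd1 are lower, and the colored groups overlap in every panel.

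No member differed between genotypes past the adjusted threshold in fasting liver. In NAMPT LKO Fasting compared with WT Fasting livers, 0 of 10 members passed the adjusted threshold in edgeR's quasi-likelihood test, and 0 passed in edgeR's exact test, voomWithQualityWeights or DESeq2. Across all genes 1 gene passed in edgeR's quasi-likelihood test, Nampt itself, which is 0.00744% of those tested. The other tools called 24 genes (edgeR's exact test), 1 gene (voomWithQualityWeights) and 21 genes (DESeq2). At an unadjusted p under 0.05 in edgeR's quasi-likelihood test the count was 2 members, Gadd45g and Btg2, beside 6.03% of all genes. Their 95% intervals on the log2 scale, -2.33 to -0.37 and 0.013 to 0.79, left out 0, and those of the other members spanned it. The groups overlapped for all 10 members, beside 3.99% of all genes with no overlap between 5 and 3 livers (1.87% higher and 2.12% lower). At so low a share, this overlap does not set the members apart from other genes. The median log2 fold change was -0.11 over the members and 0.00025 over all genes.

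In NAMPT LKO Fasting compared with WT Refed livers, Gadd45b, Btg1 and Trp53inp1 rose and Ccnd1 fell. These 4 of 10 members stand beside 11.2% of all genes called in either direction, with 4.65% that rose and 6.58% that fell. At an unadjusted p under 0.05 the counts were 6 members and 26.1% of all genes. The groups did not overlap for 4 members that were higher and 2 that were lower, beside 15.7% and 17.8% of all genes. Both comparisons with WT Refed liver use the same 2 WT Refed livers, and both comparisons of WT Fasting livers use the same 3, so the values are set side by side and are not independent. Without NAMPT LKO replicate 5 the counts of members called were again 3, 0 and 4.

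**Figure D2:**
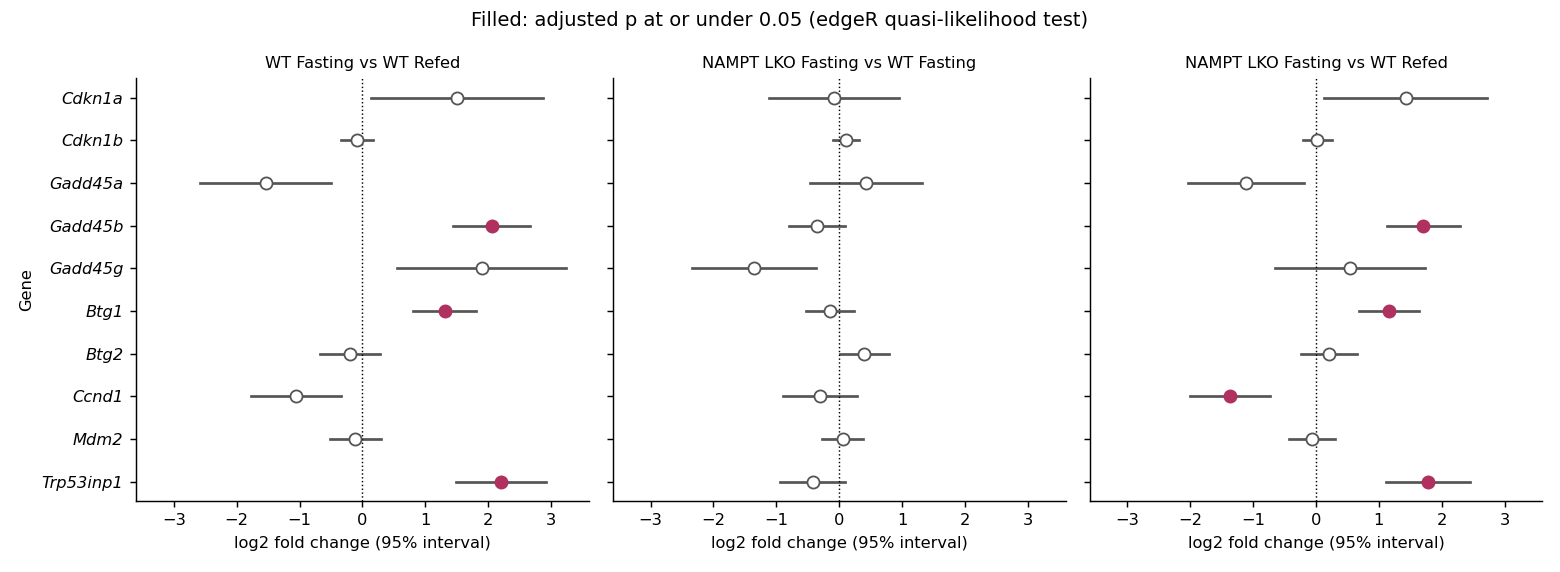
Log2 fold changes (horizontal axes) of the 10 members in the 3 comparisons, with 95% intervals from edgeR's quasi-likelihood fit, and filled points where the adjusted p was at or under 0.05. Filled points appear in the outer panels alone, 3 for WT Fasting and 4 for NAMPT LKO Fasting against WT Refed, and the middle panel of the deletion holds none.

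The GADD45 family holds 3 small stress proteins that bind and activate the kinase MTK1 upstream of p38 and JNK, and that also bind p21 and PCNA. Gadd45a (ENSMUSG00000036390) spans chr6:67035096-67037457 (GRCm38, minus strand), Gadd45b (ENSMUSG00000015312) chr10:80930091-80932204 (plus strand) and Gadd45g (ENSMUSG00000021453) chr13:51846678-51848468 (plus strand). In fasting liver these paralogs parted. The RefSeq sequences that lie before Gadd45b and Gadd45a are shown because these genes differed most within the family. They cover chr10:80929841-80930090 on the plus strand and chr6:67037458-67037657 on the minus strand of GRCm38.p6, each read 5′ to 3′ toward the gene and ending where the annotated gene begins. Capitals mark an E-box (CACGTG), a GC box (GGGCGG on either strand) and a TATA box (TATAAA).
Gadd45b: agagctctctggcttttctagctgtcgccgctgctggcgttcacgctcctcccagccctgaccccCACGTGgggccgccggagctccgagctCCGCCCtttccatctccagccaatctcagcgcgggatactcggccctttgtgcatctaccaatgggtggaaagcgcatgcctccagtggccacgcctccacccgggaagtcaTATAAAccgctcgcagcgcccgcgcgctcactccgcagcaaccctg
Gadd45a: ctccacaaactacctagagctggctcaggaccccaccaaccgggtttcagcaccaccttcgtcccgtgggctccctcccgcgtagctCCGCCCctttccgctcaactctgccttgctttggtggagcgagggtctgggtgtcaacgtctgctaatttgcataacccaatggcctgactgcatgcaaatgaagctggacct

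Gadd45b, which in liver is known as an early response gene, stood at 3.61 and 4.43 CPM in the WT Refed livers, 12.6, 17.9 and 19.6 CPM in the WT Fasting livers, and 14.8, 14.04, 10.2, 9.96 and 16.6 CPM in the NAMPT LKO Fasting livers. Every Fasting liver lay above both WT Refed livers, and the genotypes overlapped. The log2 fold change was 2.05 (standard error 0.28, adjusted p = 0.00245) in WT Fasting and 1.71 (standard error 0.26, adjusted p = 0.00287) in NAMPT LKO Fasting against WT Refed livers by edgeR's quasi-likelihood test. Without WT Refed replicate 1 the second value was 1.55 and its call was lost (adjusted p = 0.0557). Between genotypes it was -0.35 with a 95% interval from -0.79 to 0.099.

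Gadd45a, the member of the family under p53, went the other way at a level close to the detection limit. It stood at 2.67 and 1.36 CPM in the WT Refed livers, 0.36, 0.71 and 1.00 CPM in the WT Fasting livers, and 0.75, 0.61, 1.34, 0.95 and 0.98 CPM in the NAMPT LKO Fasting livers. Both WT Refed livers were highest, the lower of them by a small margin over NAMPT LKO replicate 3. Its log2 fold changes, -1.54 (standard error 0.48, adjusted p = 0.0787) and -1.11 (standard error 0.42, adjusted p = 0.117), did not pass in edgeR's quasi-likelihood test. In WT Fasting livers it passed in edgeR's exact test, voomWithQualityWeights and DESeq2, with adjusted p = 0.0274, 0.0213 and 0.0291. In NAMPT LKO Fasting livers it passed in voomWithQualityWeights (adjusted p = 0.0338) and not in edgeR's exact test (adjusted p = 0.0675) or DESeq2 (adjusted p = 0.0842). Without WT Refed replicate 1 the values were -0.99 and -0.56, with adjusted p = 0.501 and 0.69 in edgeR's quasi-likelihood test. These values rest on 15 to 119 counts per library, and 337 of its 1764 exonic bases are shared with E230016M11Rik on the opposite strand, which collected 8 to 27 counts.

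Gadd45g, often induced by cytokines and hormones in liver, varied most between livers of 1 group. WT Refed livers held 9.10 and 14.3 CPM, WT Fasting livers 80.3, 34.9 and 15.2 CPM, and NAMPT LKO Fasting livers 10.8, 11.4, 16.1, 19.8 and 27.0 CPM. WT Fasting replicates 1 and 2 were above every other library, while WT Fasting replicate 3 was within the range of the NAMPT LKO livers. The coefficient of variation was 76.7% among WT Fasting livers. Compared with WT Refed livers the log2 fold change was 1.89 (standard error 0.61, adjusted p = 0.0914 in edgeR's quasi-likelihood test), and the adjusted p was 0.0312 in edgeR's exact test, 0.00809 in voomWithQualityWeights and 0.0482 in DESeq2. Without WT Fasting replicate 1 it was 1.09 (adjusted p = 0.244 in edgeR's quasi-likelihood test), and without WT Fasting replicate 3 it was 2.29 and passed (adjusted p = 0.0252). In NAMPT LKO compared with WT Fasting livers it was -1.35 (standard error 0.45, unadjusted p = 0.0116, adjusted p = 0.798 in edgeR's quasi-likelihood test, exact permutation p = 0.107). This value was -0.55 without WT Fasting replicate 1.

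Scaled by length, the balance between the paralogs shifted. The RPKM ratio of Gadd45b to Gadd45a was 1.89 and 4.53 in the WT Refed livers, 48.9, 34.9 and 27.4 in the WT Fasting livers, and 27.7, 32.1, 10.6, 14.6 and 23.8 in the NAMPT LKO Fasting livers. Both WT Refed livers were thus below all 8 Fasting livers. The ratio of Gadd45g to Gadd45b spanned 2.72 to 3.49 in WT Refed, 0.84 to 6.88 in WT Fasting and 0.79 to 2.14 in NAMPT LKO Fasting livers, and WT Fasting overlapped both other groups.

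**Figure D3:**
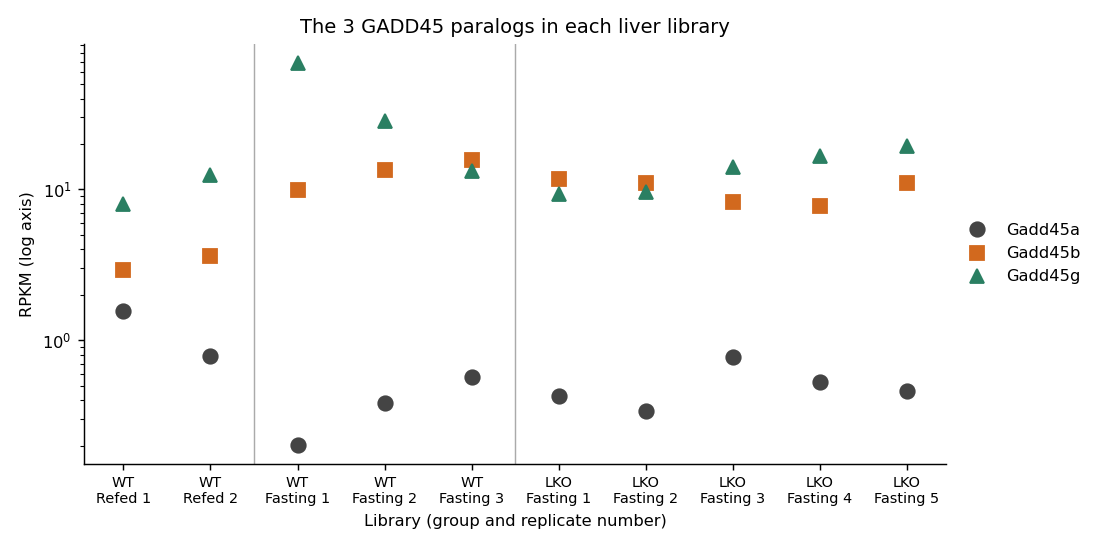
RPKM (log axis) of Gadd45a (circles), Gadd45b (squares) and Gadd45g (triangles) in each of the 10 libraries, named by group and replicate number. Gadd45a is the lowest in every library, Gadd45b lies closer to Gadd45a in the 2 WT Refed livers than in any Fasting liver, and Gadd45g is the highest in 7 of 10 libraries.

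BTG1 and BTG2 are antiproliferative proteins that bring the CCR4-NOT deadenylase to mRNAs and speed their decay. Btg1 (ENSMUSG00000036478) spans chr10:96617001-96622813 (GRCm38, plus strand) and Btg2 (ENSMUSG00000020423) chr1:134075170-134079120 (minus strand). These paralogs also parted in fasting liver, which is why the sequences before both are printed. They cover chr10:96616751-96617000 on the plus strand and chr1:134079156-134079405 on the minus strand of GRCm38.p6 in RefSeq, read 5′ to 3′ toward the gene. Capitals mark a FOXO motif (GTAAACA, here on the opposite strand), GC boxes and a TATA box in Btg1, and a CRE (TGACGTCA) and overlapping GC boxes in Btg2.
Btg1: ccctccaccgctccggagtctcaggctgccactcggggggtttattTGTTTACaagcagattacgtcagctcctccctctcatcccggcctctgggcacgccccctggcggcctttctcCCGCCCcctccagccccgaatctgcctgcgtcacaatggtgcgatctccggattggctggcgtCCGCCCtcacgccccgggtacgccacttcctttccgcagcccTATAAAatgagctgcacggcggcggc
Btg2: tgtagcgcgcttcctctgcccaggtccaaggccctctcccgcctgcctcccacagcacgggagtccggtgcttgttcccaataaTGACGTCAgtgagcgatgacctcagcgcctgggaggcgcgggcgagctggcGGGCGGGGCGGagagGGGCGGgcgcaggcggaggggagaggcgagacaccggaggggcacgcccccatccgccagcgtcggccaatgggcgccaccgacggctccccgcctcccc

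Btg1 stood at 31.1 and 25.2 CPM in the WT Refed livers, 76.9, 67.9 and 64.4 CPM in the WT Fasting livers, and 67.6, 56.4, 70.5, 77.7 and 42.7 CPM in the NAMPT LKO Fasting livers. The Fasting livers were all higher, of which the lowest was NAMPT LKO replicate 5, the library rich in mitochondrial reads. The log2 fold change was 1.31 (standard error 0.23, adjusted p = 0.0079) in WT Fasting and 1.16 (standard error 0.21, adjusted p = 0.00682) in NAMPT LKO Fasting against WT Refed livers by edgeR's quasi-likelihood test. The calls were lost when either WT Refed liver was left out, with adjusted p from 0.0534 to 0.133 and log2 fold changes from 1.01 to 1.45.

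Btg2, a p53 target and an immediate early gene, did not follow Btg1. It stood at 6.07 and 5.86 CPM in the WT Refed livers, 5.25, 3.72 and 6.62 CPM in the WT Fasting livers, and 6.48, 6.70, 7.59, 6.46 and 7.12 CPM in the NAMPT LKO Fasting livers. Its log2 fold change in WT Fasting against WT Refed livers was -0.20 (95% interval -0.67 to 0.28). NAMPT LKO livers were higher than 2 of 3 WT Fasting livers and overlapped the other, with a log2 fold change of 0.40 (standard error 0.18, unadjusted p = 0.0438, adjusted p = 0.827 in edgeR's quasi-likelihood test, exact permutation p = 0.0536). Without WT Fasting replicate 2, the lowest liver, it was 0.21. The RPKM ratio of Btg1 to Btg2 was 2.36 to 2.80 in WT Refed, 5.33 to 9.99 in WT Fasting and 3.28 to 6.58 in NAMPT LKO Fasting livers, with no overlap between WT Refed and Fasting livers.

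The CDK inhibitors differed from each other in how much they varied. Cdkn1a (ENSMUSG00000023067) spans chr17:29090979-29100722 (GRCm38, plus strand) and Cdkn1b (ENSMUSG00000003031) chr6:134920401-134925513 (plus strand). The sequence before Cdkn1a is shown for its match to the p53 motif, a pair of half-sites of 10 bases up to 13 bases apart. Such a pair was found in 1 of the 9 members' promoter windows and in 24 of 32851 windows of the RefSeq table (0.0731%). The other Cdkn1a window, chr17:29093519-29093818, lies within the annotated gene and held 0 half-sites. At least 1 half-site was found in 3 of the 9 windows, of Cdkn1a (2 half-sites), Gadd45a (1) and Mdm2 (1), and in 8.36% of all windows. The sequence covers chr17:29090729-29090978 on the plus strand of GRCm38.p6, with the half-sites found by the search in capitals, 12 bases apart. The bases tgacatgttc directly follow the second half-site and were not matched by the search. The capitals therefore need not mark the site that p53 binds.
Cdkn1a: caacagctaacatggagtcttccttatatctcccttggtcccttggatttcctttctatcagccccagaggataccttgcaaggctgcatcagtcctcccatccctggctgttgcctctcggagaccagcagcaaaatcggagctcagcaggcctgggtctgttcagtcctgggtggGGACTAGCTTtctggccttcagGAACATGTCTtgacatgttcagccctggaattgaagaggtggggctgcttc

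Cdkn1a stood at 6.99 and 20.3 CPM in the WT Refed livers, 26.3, 33.1 and 56.9 CPM in the WT Fasting livers, and 19.0, 36.1, 76.02, 22.4 and 29.5 CPM in the NAMPT LKO Fasting livers. It spanned 10.9-fold over the 10 libraries, the widest range of the members, and 1 NAMPT LKO liver lay below the higher WT Refed liver. The log2 fold changes of 1.505 (standard error 0.62, adjusted p = 0.182) in WT Fasting and 1.42 (standard error 0.59, adjusted p = 0.151) in NAMPT LKO Fasting against WT Refed livers did not pass in edgeR's quasi-likelihood test. By voomWithQualityWeights the second passed (log2 fold change 1.53, adjusted p = 0.0295) and the first did not (adjusted p = 0.056), and neither passed in edgeR's exact test or DESeq2. Without WT Refed replicate 1 they were 0.92 and 0.84, and without WT Refed replicate 2 they were 2.46 and 2.38.

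Between genotypes the Cdkn1a log2 fold change was -0.081 with a 95% interval from -1.11 to 0.95. It was -0.54 without NAMPT LKO replicate 3 and 0.30 without WT Fasting replicate 3. These livers, the highest of their groups for Cdkn1a, also had the highest macrophage marker sums. The 6 Kupffer cell and macrophage markers, all detected, summed to 333 and 433 CPM in them, against 209 to 214 CPM in the other WT Fasting livers, 148 to 261 CPM in the other NAMPT LKO livers and 167 to 207 CPM in the WT Refed livers. The 14 acute phase genes summed to 31265 CPM in NAMPT LKO replicate 3 and to 11453 to 15213 CPM in the other 9 livers. Of the 6 neutrophil markers, Ly6g and Mpo had a median count of 0. The part of these cells and of the acute phase in the Cdkn1a level was not tested.

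**Figure D4:**
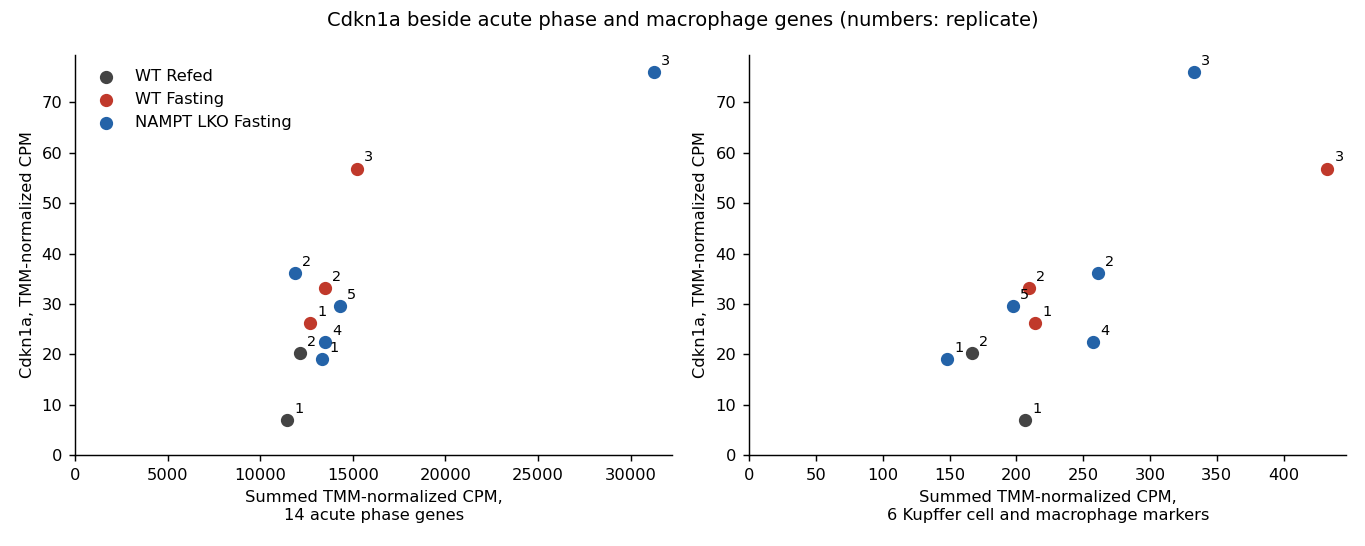
Cdkn1a (vertical axes, TMM-normalized CPM) against the summed CPM of 14 acute phase genes (left) and of 6 Kupffer cell and macrophage markers (right), 1 point per library, colored by group and numbered by replicate. NAMPT LKO replicate 3, at 76.02 CPM of Cdkn1a, stands alone at the right of the first panel, and it and WT Fasting replicate 3 hold the 2 highest marker sums of the second.

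Cdkn1b, which is held mainly by protein turnover in quiescent cells, was the steadiest member. It stood at 22.8 and 23.6 CPM in the WT Refed livers, 24.2, 20.03 and 21.6 CPM in the WT Fasting livers, and 23.2, 22.7, 24.9, 23.0 and 23.9 CPM in the NAMPT LKO Fasting livers. The highest library was 1.24-fold above the lowest. Its log2 fold changes were -0.081 (95% interval -0.34 to 0.17), 0.10 (-0.10 to 0.31) and 0.022 (-0.21 to 0.26) in WT Fasting against WT Refed, NAMPT LKO against WT Fasting and NAMPT LKO against WT Refed livers, and the direction of the last turned with the scaling, at -0.069 on library size alone.

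The p53 feedback genes gave the strongest rise and a flat level side by side. Trp53inp1 (ENSMUSG00000028211), whose protein p53 induces and which in turn favors p53 activity and autophagy, spans chr4:11156431-11174379 (GRCm38, plus strand). Mdm2 (ENSMUSG00000020184), the ubiquitin ligase that restrains p53, spans chr10:117688888-117710758 (minus strand). Trp53inp1 stood at 38.6 and 19.6 CPM in the WT Refed livers, 122, 113 and 166 CPM in the WT Fasting livers, and 83.2, 115, 94.8, 75.5 and 131 CPM in the NAMPT LKO Fasting livers. Every Fasting liver was well above both WT Refed livers, and NAMPT LKO livers reached lower than WT Fasting livers while overlapping them. The log2 fold change was 2.20 (standard error 0.33, adjusted p = 0.00376) in WT Fasting and 1.78 (standard error 0.31, adjusted p = 0.00479) in NAMPT LKO Fasting against WT Refed livers by edgeR's quasi-likelihood test. Without WT Refed replicate 2 the calls were lost, with log2 fold changes of 1.79 and 1.36 and adjusted p = 0.0528 and 0.0758. Between genotypes it was -0.42 with a 95% interval from -0.94 to 0.099 and an adjusted p of 0.837.

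Mdm2 stood at 37.6 and 39.4 CPM in the WT Refed livers, 39.4, 29.1 and 38.1 CPM in the WT Fasting livers, and 33.5, 37.4, 34.5, 31.3 and 47.6 CPM in the NAMPT LKO Fasting livers. The groups overlapped in all 3 comparisons, with log2 fold changes of -0.12 (95% interval -0.52 to 0.29), 0.052 (-0.28 to 0.38) and -0.063 (-0.44 to 0.31). The RPKM ratio of Trp53inp1 to Mdm2 was 0.80 and 0.39 in the WT Refed livers, 2.43 to 3.41 in WT Fasting livers and 1.89 to 2.42 in NAMPT LKO Fasting livers. Trp53inp1 was the lower of the pair in both WT Refed livers and the higher in all 8 Fasting livers.

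Ccnd1 (ENSMUSG00000070348), which encodes cyclin D1, the growth factor responsive partner of CDK4 and CDK6, spans chr7:144929931-144939869 (GRCm38, minus strand). It was the 1 member called lower, in NAMPT LKO Fasting against WT Refed livers. Cyclin D1 transcripts stood at 13.5 and 25.2 CPM in the WT Refed livers, 8.96, 6.23 and 12.6 CPM in the WT Fasting livers, and 10.02, 6.38, 5.92, 8.01 and 7.18 CPM in the NAMPT LKO Fasting livers. Both WT Refed livers were highest, with WT Fasting replicate 3 close under the lower one. The log2 fold change was -1.37 (standard error 0.29, adjusted p = 0.0129) in NAMPT LKO Fasting against WT Refed livers by edgeR's quasi-likelihood test. It was -0.86 with an adjusted p of 0.267 without WT Refed replicate 2. In WT Fasting livers the log2 fold change was -1.06 (standard error 0.32, adjusted p = 0.0764), and adjusted p was 0.0289 in edgeR's exact test, 0.0139 in voomWithQualityWeights and 0.0213 in DESeq2. Between genotypes it was -0.31 (95% interval -0.89 to 0.28). LTO1, on the opposite strand, shares 818 of the 3835 exonic bases of Ccnd1 and collected 220 to 458 counts.

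The order of the members by RPKM changed with feeding. In WT Refed livers the authors' RPKM averaged 10.3 for Gadd45g, 7.83 for Mdm2 and 6.33 for Cdkn1a at the top, and 1.18 for Gadd45a at the bottom. Neighbours in this order overlapped, except Gadd45g above Mdm2 and Btg2 and Gadd45a below the rest. In WT Fasting livers Gadd45g (36.7), Trp53inp1 (20.5), Cdkn1a (17.3), Btg1 (13.8) and Gadd45b (13.04) formed an upper group whose neighbours overlapped, above Mdm2 at 6.96 RPKM. Cdkn1b followed at 4.77, Ccnd1 at 2.40, Btg2 at 1.89 and Gadd45a at 0.39 RPKM, and Ccnd1 and Btg2 alone of these neighbours overlapped. In NAMPT LKO Fasting livers the same 5 genes led, with Cdkn1a at 16.1, Trp53inp1 at 14.8, Gadd45g at 13.8, Btg1 at 12.3 and Gadd45b at 9.96 RPKM, and the last overlapped Mdm2 at 6.97 RPKM.

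The other genes of these pathways were read from lists that exclude the members. All list counts are by edgeR's quasi-likelihood test unless another tool is named, and stand beside 7.04% of all genes called in WT Fasting and 11.2% in NAMPT LKO Fasting against WT Refed livers. By DESeq2 the calls over all 13444 genes were 1646 and 2242, and by voomWithQualityWeights 3331 and 4281. Of 28 tested p53 pathway genes, 2 rose and 2 fell in WT Fasting against WT Refed livers, and 3 rose and 3 fell in NAMPT LKO Fasting against WT Refed livers. DESeq2 called 6 and 11 of them, and voomWithQualityWeights 12 and 14. Those that rose in WT Fasting livers were Ddit4, an inhibitor of mTORC1, at a log2 fold change of 2.54 (adjusted p = 0.00674 in edgeR's quasi-likelihood test), and Sesn2, a leucine sensor that also restrains mTORC1, at 1.77 (adjusted p = 0.0225). Tigar, a fructose bisphosphatase, fell by 1.20 and Zmat3, an RNA-binding protein, fell by 0.75 on the log2 scale. The median of the list was 0.19. In NAMPT LKO Fasting against WT Refed livers these genes moved the same way at 1.44, 1.59, -1.23 and -0.57, and Ercc5, a repair nuclease, rose by 0.49 and Pidd1, a p53-induced death domain protein, fell by 0.93, while their values in WT Fasting livers were 0.41 and -0.70 with adjusted p = 0.0962 and 0.172. WT Fasting livers averaged 21.8 ± 2.69 CPM of Ddit4 (SD, n = 3) and NAMPT LKO Fasting livers 10.2 ± 4.65 CPM (SD, n = 5), a log2 fold change of -1.10 that did not pass (adjusted p = 0.761 in edgeR's quasi-likelihood test).

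Among the remaining CDK inhibitors and pocket proteins, 4 of 6 tested genes rose in NAMPT LKO Fasting against WT Refed livers, which were Rbl2 and Rb1, pocket proteins that hold E2F, and the inhibitors Cdkn1c and Cdkn2c. Their log2 fold changes were 0.57, 0.64, 0.97 and 0.79. In WT Fasting against WT Refed livers they were 0.37, 0.57, 0.65 and 0.46, and 0 of 6 genes passed in edgeR's quasi-likelihood test, edgeR's exact test or DESeq2, with 3 in voomWithQualityWeights and 3 at an unadjusted p under 0.05. The comparison between genotypes gave 0 of 6 by all 4 tools and 0 at an unadjusted p under 0.05. The list medians were 0.42 in WT Fasting and 0.60 in NAMPT LKO Fasting against WT Refed livers. Of 13 cyclin, CDK, CDC25 and E2F genes, Ccng2, a cyclin of resting cells, rose by 2.42 and 1.98 and Cdk2 rose by 1.18 and 0.97 in WT Fasting and NAMPT LKO Fasting against WT Refed livers. Ccnd2, a D-type cyclin, fell by 0.64 in the latter and stood at -0.62 in the former (adjusted p = 0.0724 in edgeR's quasi-likelihood test). Of the 13, DESeq2 called 3 and 5 and voomWithQualityWeights 7 and 6. Of 16 tested proliferation markers, 0 passed in edgeR's quasi-likelihood test, edgeR's exact test or DESeq2 in any comparison. By voomWithQualityWeights 3 markers passed in WT Fasting and 6 in NAMPT LKO Fasting against WT Refed livers, and at an unadjusted p under 0.05 the counts were 4 and 3, with 0 by either measure between genotypes. Their summed level was 68.7 to 87.8 CPM over the 20 listed genes in all livers.

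Partners of the GADD45 and BTG proteins gave 1 call of 10 in each of 2 lists in WT Fasting and 2 of 10 in each in NAMPT LKO Fasting against WT Refed livers. By voomWithQualityWeights 2 of 10 in each list passed in WT Fasting livers, and 2 and 3 of 10 in NAMPT LKO Fasting livers. Of 10 genes of the p38 and JNK cascade, Map2k3, a kinase of p38, fell by 0.57 in WT Fasting and by 0.61 in NAMPT LKO Fasting livers, and Mapk14, p38 alpha itself, fell by 0.54 in the latter and stood at -0.38 in the former. Of 10 genes of the BTG/TOB family and CCR4-NOT complex, Tob2, an antiproliferative relative of BTG1, rose by 1.07 and 0.74, and Cnot6l, a deadenylase, rose by 0.50 in NAMPT LKO Fasting livers and stood at 0.35 in WT Fasting livers. Against WT Refed livers the medians of both lists lay between -0.11 and 0.17.

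Among 30 DNA damage signaling and repair genes, 1 rose and 2 fell in WT Fasting against WT Refed livers, and 2 rose and 5 fell in NAMPT LKO Fasting against WT Refed livers. DESeq2 called 7 and 10 of the 30, and voomWithQualityWeights 10 and 11. Xpa, which verifies lesions in nucleotide excision repair, rose by 0.85 and 1.11. Parp1, which consumes NAD+ at strand breaks, fell by 0.49 and 0.41. Lig3, a DNA ligase, and H2afx, the histone marked at breaks, fell by 0.57 and 1.41 and Brca2, of homologous recombination, rose by 0.96 in NAMPT LKO Fasting livers. Their values in WT Fasting livers, -0.46, -1.09 and 0.46, did not pass in edgeR's quasi-likelihood test, and none differed between genotypes past the threshold in that test. The medians were -0.20 and -0.11, against 0.037 and 0.032 over all genes.

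**Figure D5:**
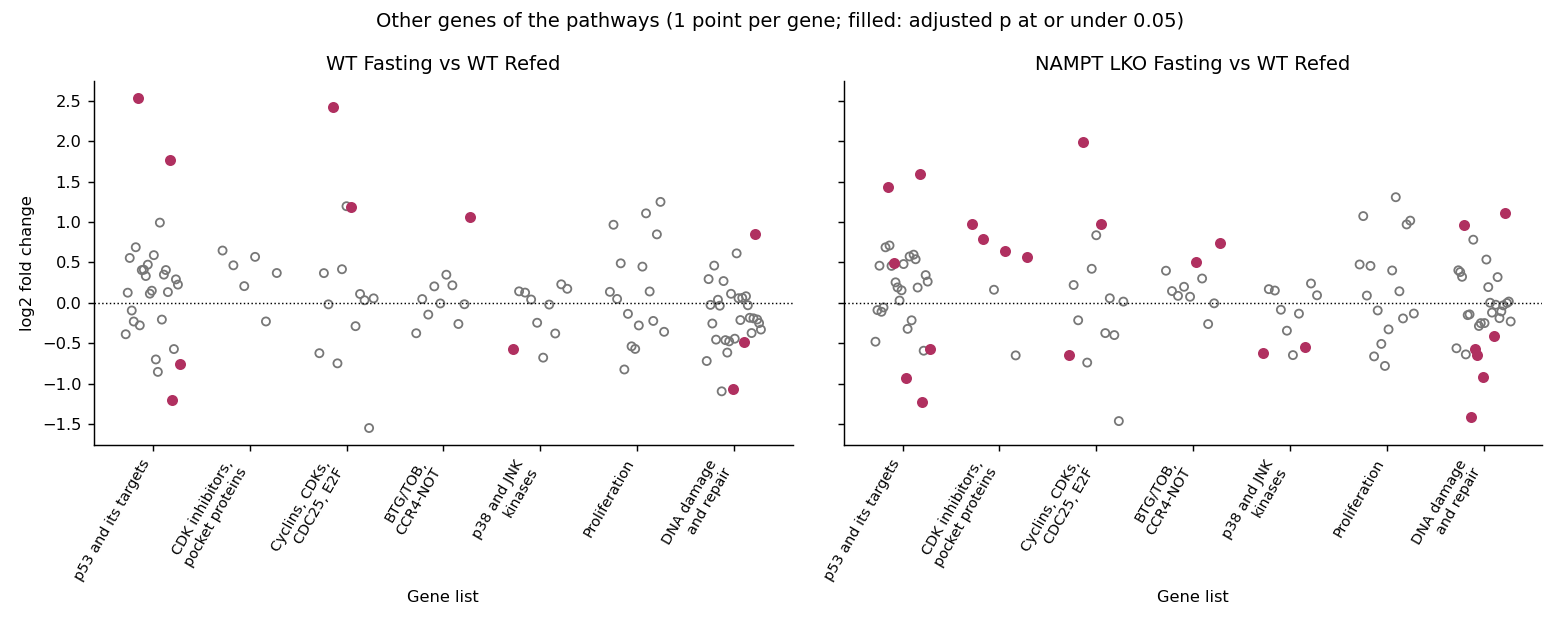
Log2 fold change (vertical axes) of each tested gene of 7 pathway lists without the members, in WT Fasting (left) and NAMPT LKO Fasting (right) against WT Refed livers, filled where the adjusted p was at or under 0.05. Most points are open and lie around 0, with Ddit4 and Ccng2 highest at the left, and 4 of 6 points of the CDK inhibitor and pocket protein list are filled at the right and 0 at the left.

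Immediate early and feeding genes were read beside the members. Of 13 tested immediate early genes, Dusp1 rose by 1.54 in WT Fasting and by 1.07 in NAMPT LKO Fasting against WT Refed livers. Zfp36 rose by 0.83 in WT Fasting against WT Refed livers. The summed list was 217 to 224 CPM in WT Refed, 254 to 366 CPM in WT Fasting and 229 to 326 CPM in NAMPT LKO Fasting livers. Of 11 feeding genes, 4 rose and 1 fell in WT Fasting livers, led by Pck1, Igfbp1 and G6pc, at log2 fold changes of 1.41, 7.65 and 3.21, and 6 rose and 2 fell in NAMPT LKO Fasting against WT Refed livers. Of 14 acute phase genes, 0 passed in edgeR's quasi-likelihood test in any comparison, and at most 1 by each of the other tools and 2 at an unadjusted p under 0.05. The part of the immediate early genes in the Gadd45b rise was not tested.

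Across the promoter windows, 300 bases around the RefSeq start, 8 of 10 members had 9 windows in the table. The FOXO motif GTAAACA was found in Btg1 and Mdm2, and in 3.65% of all 32851 windows. The CRE was found in Btg2 alone (1.79% of all windows), the AP-1 motif TGACTCA in 0 of 9 (5.20%), the E-box in Gadd45b and Gadd45g (7.15%), the TATA box in Gadd45b, Gadd45g and Btg1 (13.6%), and the GC box GGGCGG in 7 of 9 (35.7%). Both strands were searched. These matches are letters in a window and say nothing of binding.

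Within groups, the members did not move as a block. Over the 10 libraries, the Pearson r between the within-group deviations of 2 members ran from -0.81 for Gadd45b and Btg1 to 0.58 for Btg2 and Mdm2, as a description of libraries that share depth and scaling. By the same measure, among 9147 genes of at least 5 CPM, Gadd45b was most like Myo10 (r = 0.975), Btg1 most like Bin1 (r = 0.978), Mdm2 most like Eif2s3x (r = 0.974), Trp53inp1 most like Rp2 (r = 0.959), Gadd45g most like Tab2 (r = 0.949) and Btg2 most like Mafk (r = 0.947). Ccnd1 was most like Csf1 (r = 0.941), Cdkn1a most like Eps15l1 (r = 0.935), Cdkn1b most like E2f8 (r = 0.923) and Gadd45a most like Arap3 (r = 0.902). Each of these is the highest r found among 9147 genes over 10 libraries, so the search itself favors high values. The r of Gadd45b and Btg1 includes NAMPT LKO replicate 5, rich in mitochondrial reads, the highest of its group for Gadd45b and the lowest for Btg1.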

How the data were processed

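The authors selected polyadenylated RNA, sequenced single short reads, aligned them to GRCm38 with STAR 2.5.1a and took unambiguous reads for each Ensembl gene with featureCounts 1.4.6-p5, versions taken from the submitters' processing notes. The strand setting of the counting is not given in the sources used here. The authors deposited counts, CPM and RPKM per gene, 1 table per library, and the deposited CPM and RPKM were checked against the deposited counts and add no other scaling. 

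A gene was tested if any library held more than 1 CPM, without 4 rRNA genes. Counts were TMM-scaled and tested with edgeR 4.0.16 in R 4.3.3 (quasi-likelihood test, two-sided, all 10 libraries in one fit, Benjamini-Hochberg adjustment over 13444 genes). Exact permutation tests used log2(CPM + 1), and the smallest p was 0.1 for 3 livers against 2, 0.0179 for 5 against 3 and 0.0476 for 5 against 2. Alternatives were edgeR's exact test, voomWithQualityWeights (limma 3.58.1), DESeq2 1.42.0, other scalings and filters, a GC correction, each library left out and a block on replicate number. The fit was tested on simulated data. Of 100 genes set to a log2 fold change of 1 in either direction, 44 passed in WT Fasting against WT Refed livers. In NAMPT LKO Fasting livers 58 passed against WT Fasting and 58 against WT Refed livers. At a log2 fold change of 2 these counts were 87, 91 and 91 of 100. Genes without a set change that passed were 4, 8 and 9.

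The members and gene lists were chosen with earlier results of these data known. The text names the members, Nampt, up to 4 called genes in each direction per pathway list and up to 3 of each other list by lowest p, and the gene most like each member (Pearson r of deviations from group means, mean of at least 5 CPM). 1 gene that this rule names is not reported here. The p53 motif was searched after the other motifs. WT Refed replicate numbers follow sample order, and no label says that a number marks a shared mouse. No replicate pair differed by less than the sampling noise. P-values measure the spread between these samples.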

Additional observations from a re-analysis of the deposited data

How the results depend on the processing

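Of the members' log2 fold changes under the alternatives, 571 kept their direction and side of the threshold and 17 turned, none of which had passed. A further 24 passed newly and 8 lost their call. The alternatives counted here include an unadjusted p under 0.05, and part of the 24 passed by that p alone. With 2 WT Refed livers, leaving out either decides how many members are called against WT Refed liver, and the remaining liver is then assumed to vary like the other groups. Low counts limit Gadd45a.

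In WT Fasting against WT Refed livers, genes called were 946, against 3331 by voomWithQualityWeights, 1646 by DESeq2, 1649 with only the 2 groups compared, 1427 with the GC trend removed, 3002 unadjusted and 107 to 2231 with each library left out (107 without WT Refed replicate 2, 194 without WT Refed replicate 1, 538 and 466 without WT Fasting replicates 1 and 2, 2231 without NAMPT LKO replicate 5). Members called were 3, against 6 by edgeR's exact test, voomWithQualityWeights and DESeq2, 5 with every gene of at least 1 count, 7 unadjusted and 1 to 5 with each library left out (1 without WT Refed replicate 2, 5 without WT Fasting replicate 3). The share of calls that were higher was 38.1%, and 25.7% on library size alone.

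In NAMPT LKO against WT Fasting livers, genes called were 1, against 24 by edgeR's exact test, 21 by DESeq2, 2 on library size alone, 17 with every gene of at least 1 count, 3 by filterByExpr, 3 with the GC trend removed, 811 unadjusted and 1 to 2 with each library left out (2 without WT Fasting replicate 1, WT Fasting replicate 2 or NAMPT LKO replicate 3). Members called were 0 throughout, 0 to 0 with each library left out, and 2 unadjusted. In NAMPT LKO against WT Refed livers, genes called were 1510, against 4281 by voomWithQualityWeights, 3507 unadjusted and 227 to 2835 with each library left out (347 and 227 without WT Refed replicates 1 and 2, 989 without NAMPT LKO replicate 2, 2835 without NAMPT LKO replicate 5). Members called were 4, against 6 by voomWithQualityWeights, 6 unadjusted and 1 to 4 with each library left out (2 and 1 without WT Refed replicates 1 and 2). Higher calls were 41.4%, and 26.1% on library size alone. The cause was not tested.

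The replicate block over libraries numbered 1 to 3 gave 0 genes and 0 members called, as did these libraries without the block. No label says that the numbers pair mice. Same-numbered WT Fasting and NAMPT LKO livers correlated at 0.11, 0.066 and 0.14 in their deviations, and differently numbered ones at -0.20 to -0.0059. Among the NAMPT LKO livers numbered 1 to 3, each WT Fasting library thus correlated best with its own number. The other NAMPT LKO livers were not compared. These low values come from the data and not the design, and whether they reflect pairing was not tested.

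Values that turned were Cdkn1a between genotypes (0.036 by voomWithQualityWeights, 0.0057 with the GC trend removed, 0.30 without WT Fasting replicate 3, 0.083 and 0.053 without NAMPT LKO replicates 1 and 4, 0.032 with the block, 0.18 in libraries 1 to 3, and -0.54 to 0.30 with each library left out), Mdm2 between genotypes (-0.072 without WT Fasting replicate 2, -0.058 without NAMPT LKO replicate 5, -0.0065 with the block, -0.017 in libraries 1 to 3, and -0.072 to 0.13 with each library left out) and in WT Fasting against WT Refed livers (0.0095 without WT Fasting replicate 2, and -0.21 to 0.0095 with each library left out), and Cdkn1b in NAMPT LKO against WT Refed livers (-0.069 on library size alone, -0.0046 with every gene, -0.039 with the GC trend removed, -0.013 without WT Refed replicate 1, -0.0080 without NAMPT LKO replicate 3).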
